A study of Danio rerio with 6 samples.

Results

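In the ventricles of adult zebrafish that carry 1 truncated copy of ttna, 53 of 57775 transcript records met a rule for higher levels. Besides a limit on the mean level, every such library had to exceed every library of wild-type (WT) siblings by more than 1.5 times. These 53 members were chosen by their own levels in the same 6 libraries. CPM is the estimated read count of a record per 1000000 estimated counts of its library. A member had a mean of at least 5 CPM over the 6 libraries, and its lowest CPM among the ttna+/- libraries was more than 1.5 times its highest CPM among the WT libraries. Of the 57775 records, 12347 reached that mean, so the members were 0.429% of the records that could qualify. The ttna+/- fish were heterozygous for a truncating mutation in exon 201 of ttna, and the WT fish were their siblings. Fish of both genotypes were 6 months of age. Each genotype had 3 libraries, called biological replicates in the labels, and every library pooled 6 ventricles. The mutants come from a single line, labelled ttnaA, and whole ventricle mixes all its cell types.

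Titin is the giant elastic protein of the sarcomere, the contractile unit of heart and skeletal muscle. It reaches from the Z-disc to the M-line, sets passive stiffness and carries many binding sites for sarcomere and signalling proteins. In people, truncating variants in a single copy of the titin gene are a frequent genetic cause of dilated cardiomyopathy, in which the ventricle widens and contracts weakly. Records carry only Ensembl transcript IDs, and the gene tables used for this report held 0 of the 57775. The members are therefore described by their annotated length in bases, and only a pair of them by ID. Neither ttna nor markers of the ventricle could be looked up, so the genotype and tissue labels were not checked against genes.

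The libraries held between 40808904 and 44412410 estimated counts in ttna+/- hearts and between 28688112 and 34140752 in WT hearts. Annotated lengths over 2000 bases exceeded effective lengths by a median of 167 to 170 bases in ttna+/- libraries and 153 to 161 bases in WT libraries. The gap depends on how long the sequenced fragments are. Neither measure overlapped between genotypes. After random thinning of the larger libraries to the smallest, 54 records met the rule, 52 of them members. Thinning keeps the expected CPM of each record, so it bears only on counting error at lower totals. The part of fragment size in the members' levels was not tested.

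The members together took 6298, 7369 and 6905 CPM in ttna+/- 1 to 3, against 2364, 2549 and 2651 CPM in WT 1 to 3. The 10 most abundant members held 76.1% of that sum, averaged over the libraries, and the most abundant 21.6%. The mean level was above 100 CPM for 11 members, between 10 and 100 CPM for 26 and below 10 CPM for 16. In these bulk samples, more cells of a type and more RNA per cell cannot be told apart. The ratio of the lowest ttna+/- to the highest WT level was above 2 for 18 members and above 3 for 7.

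Groups without overlap were more often lower than higher in ttna+/- hearts. Of the 12347 records, 549 (4.45%) had all 3 ttna+/- values above all 3 WT values, and 2388 had all 3 ttna+/- values below. These counts were 826 and 1573 with TMM factors, which trim the records that differ most, and 940 and 1252 with DESeq2 size factors. The limit of 5 CPM was applied anew after each scaling, so the records counted differ somewhat. Past the 1.5-fold limit, with library totals, the numbers were 53 higher and 148 lower. This balance depended on the scaling. With TMM factors, 75 were higher and 93 lower. With the size factors of DESeq2, 81 were higher and 80 lower. With each library's trend on length removed, 77 were higher and 105 lower. Of the 53 members, 50, 48 and 48 still met the rule under these 3 scalings. All 53 kept a ratio above 1, the smallest being 1.46, 1.44 and 1.21. They were chosen for ratios above 1.5 in the same counts, so this is no evidence beyond the choice. The median log2 ratio of the records that passed the level limit was -0.06 with library totals, 0.02 with TMM and 0.05 with DESeq2 size factors. The members' ratio of means had a median of 2.59 and a range of 1.73 to 17.6.

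The libraries did not fall apart by genotype alone. With ttna+/- 1, ttna+/- 3 and WT 1 set against ttna+/- 2, WT 2 and WT 3, 1235 records met the same rule on the side of ttna+/- 1, and 10 on the other side. By genotype 201 records met it in both directions together. In the other 8 ways of dividing the libraries into 3 and 3, which the choice of the members also refers to, 7 to 25 records met it in both directions together, and 0 to 15 on a single side. These numbers describe 6 libraries and carry no p-value. Without ttna+/- 2, 772 records met the rule for higher levels in ttna+/-, and without WT 1, 266 records did.

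**Figure D1:**
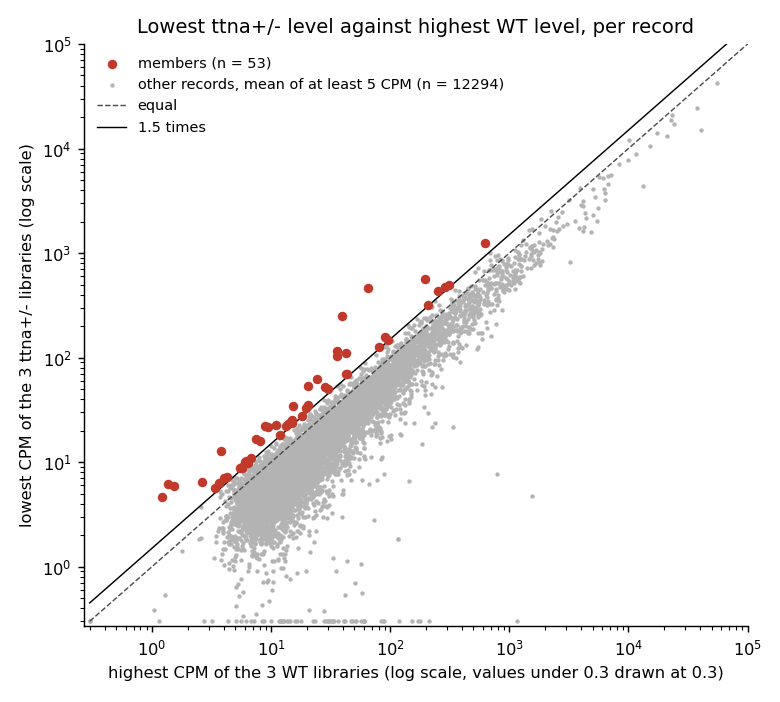
Each point is a transcript record with a mean of at least 5 CPM, placed by its lowest CPM over the 3 ttna+/- libraries (vertical axis) and its highest CPM over the 3 WT libraries (horizontal axis), both on log scales. The 53 members (red) lie above the 1.5-fold line by construction, and the 650-base member stands farthest above it, at a ratio of 7.05.

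The member with the most reads was ENSDART00000055019.6, a record of 1403 bases. Its ttna+/- libraries held 1236, 1847 and 1305 CPM, against 465, 611 and 622 CPM in WT 1 to 3. Every ttna+/- library was at least 1.99 times the highest WT library, and ttna+/- 2 was the highest of all. The ttna+/- mean of 1463 ± 335 CPM was 2.59 times the WT mean of 566 ± 87.9 CPM (SD, n = 3 per genotype). Per length it was also the highest member, at a mean of 1184 TPM in ttna+/- and 441 TPM in WT.

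Of the most abundant members, the 1431-, 1029-, 2030- and 1948-base records and 1 of 2349 bases had ratios of means between 1.75 and 3.60. The 1431-base record stood at 469, 604 and 622 CPM in ttna+/- libraries, against 291, 272 and 275 CPM in WT libraries. The 1029-base record stood at 490, 555 and 500 CPM in ttna+/- libraries, against 302, 313 and 268 CPM in WT libraries. Both had narrow WT groups, with a coefficient of variation (CV, the SD over the mean) of 3.55% and 7.96%. The 2030-base record stood at 639, 566 and 577 CPM in ttna+/- libraries, against 194, 115 and 186 CPM in WT libraries. Its ratio of means was 3.60, with WT 2 the lowest library. The 1948-base record stood at 431, 502 and 456 CPM in ttna+/- libraries, against 248, 237 and 253 CPM in WT libraries. The more abundant of a pair of 2349-base members stood at 316, 413 and 317 CPM in ttna+/- libraries, against 172, 207 and 189 CPM in WT libraries. Its ratio of 1.53 was among the lowest of the members.

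The largest separation belonged to ENSDART00000053077.6, a record of 650 bases, and to the record that follows it in the files. The 650-base record reached 462, 514 and 551 CPM in ttna+/- 1, 2 and 3, against 31.7, 65.6 and 62.1 CPM in WT 1 to 3. The lowest ttna+/- library was 7.05 times the highest WT library. The ttna+/- mean of 509 ± 44.44 CPM was 9.58 times the WT mean of 53.2 ± 18.6 CPM (SD, n = 3 per genotype). Per length it was the second highest member, at a mean of 1065 TPM in ttna+/- and 104 TPM in WT.

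The next record, of 564 bases, stood at 248, 327 and 311 CPM in ttna+/- libraries, against 19.0, 39.6 and 38.7 CPM in WT libraries. Its ratio of means was 9.11. The level of the 650-base record over that of the 564-base record was between 1.57 and 1.86 in ttna+/- libraries and between 1.61 and 1.67 in WT libraries, so they kept nearly the same proportion in all 6. Both had whole-number counts in all 6 libraries, so their counts show no division of reads with another record. The record directly after them, of 617 bases, is not a member. It stood at 1541, 1019 and 930 CPM in ttna+/- libraries, against 520, 615 and 758 CPM in WT libraries, higher in every ttna+/- library but by 1.23 times at the closest pair.

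**Figure D2:**
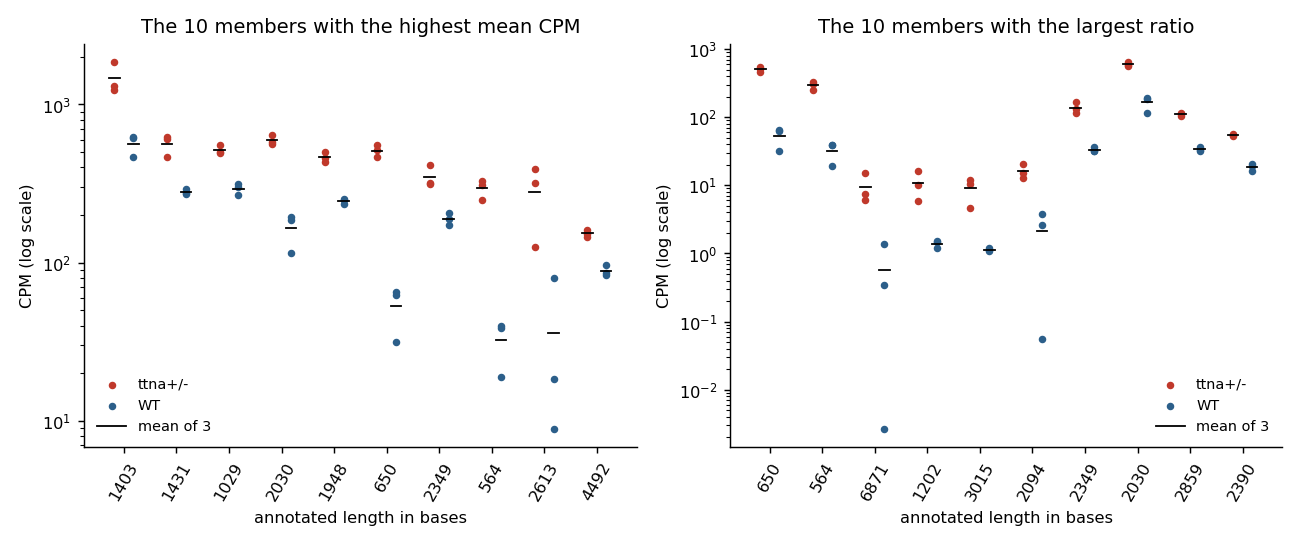
Level in CPM on a log scale of the 10 members with the highest mean (left) and the 10 with the largest ratio of lowest ttna+/- to highest WT level (right), named by annotated length in bases, with ttna+/- libraries in red, WT libraries in blue and a bar at the mean of 3. The 650-base and 564-base members appear in both panels with nearly parallel levels, and the 2613-base member has the widest spread on the left.

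A pair of further members of high ratio were less abundant and steady in WT hearts. The 1202-base record stood at 10.1, 16.3 and 5.94 CPM in ttna+/- libraries, against 1.46, 1.22 and 1.53 CPM in WT libraries. The 3015-base record stood at 10.5, 11.9 and 4.64 CPM in ttna+/- libraries, against 1.08, 1.11 and 1.22 CPM in WT libraries. In both, ttna+/- 3 was the lowest of the ttna+/- libraries, and the WT libraries lay within a CV of 11.6% and 6.62%. The 3015-base record also had whole counts in all 6 libraries, 431, 486 and 206 reads in ttna+/- hearts and 31, 38 and 40 reads in WT hearts.

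Some members met the rule with a wide spread inside a genotype. The 2613-base record stood at 321, 125 and 388 CPM in ttna+/- libraries, against 18.5, 8.90 and 80.3 CPM in WT libraries, a CV of 49.2% in ttna+/- and 108% in WT. The 792-base record stood at 21.7, 59.8 and 108 CPM in ttna+/- libraries, against 0.383, 9.43 and 1.35 CPM in WT libraries. The 896-base record stood at 16.5, 50.8 and 63.9 CPM in ttna+/- libraries, against 7.45 CPM in WT 2 and no count in WT 1 and WT 3, where 3 counts would be 0.105 and 0.0918 CPM. It was the only member with a count of 0 in any WT library. No member was under 3 counts in all WT libraries. The 792-base and 896-base records shared their order, with ttna+/- 3 highest, ttna+/- 1 lowest of the ttna+/- group and WT 2 the highest WT library. The 6871-base record, the longest member, stood at 7.52, 6.18 and 15.0 CPM in ttna+/- libraries, against 1.37 and 0.341 CPM in WT 1 and WT 3 and under 1 count in WT 2.

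The 2544-base record, steady in ttna+/- hearts and spread in WT hearts, stood at 158, 156 and 161 CPM in ttna+/- libraries, against 43.4, 68.5 and 89.5 CPM in WT libraries, a CV of 1.39% in ttna+/- and 34.4% in WT. The 1758-base record stood at 66.7, 62.7 and 61.8 CPM in ttna+/- libraries, against 18.5, 18.1 and 24.5 CPM in WT libraries, a CV of 4.17% in ttna+/- and 17.4% in WT. The 285-base record, the shortest member, stood at 22.1, 37.4 and 33.4 CPM in ttna+/- libraries, against 5.05, 8.88 and 4.62 CPM in WT libraries, a CV of 25.7% in ttna+/- and 37.9% in WT. Over all members the median CV was 16.1% in ttna+/- and 19.0% in WT. Over the 12347 records it was 18.3% in ttna+/- and 16.3% in WT.

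**Figure D3:**
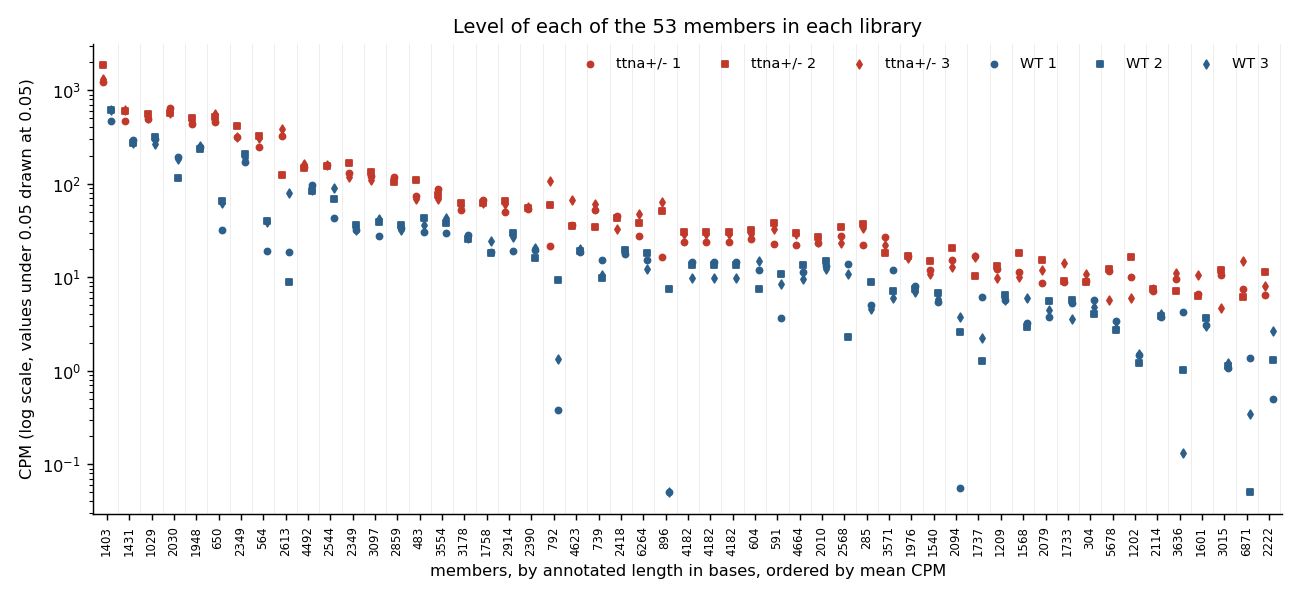
Level in CPM on a log scale of each of the 53 members in each library, with ttna+/- in red to the left and WT in blue to the right of each position, ordered by mean CPM and named by annotated length in bases, with values under 0.05 CPM drawn at 0.05. The red points lie above the blue points at every position, as the rule requires, and the blue points are widest apart for the 792-, 896-, 2094-, 3636- and 6871-base members.

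The limits of the rule cut through a continuous range. The members just inside the 1.5-fold limit, of 1209, 4492 and 3571 bases, had ratios of 1.516, 1.517 and 1.518. The records just outside, of 3541, 3495 and 2037 bases, had ratios of 1.489, 1.477 and 1.460. The members closest to the level limit, of 2222, 6871 and 3015 bases, had means of 5.05, 5.06 and 5.08 CPM. Below it, with no lower limit on counts, 629 further records met the ratio alone, the highest 3 at means of 4.27, 4.13 and 4.03 CPM. At any level 682 of the 57775 records met the ratio, but only 128 did so at a mean of at least 1 CPM, the members included.

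The 53 records held 51 distinct measurements. Records of 4182 bases at 3 separate places in the files had the same estimated count in every library, 24.1, 30.5 and 28.9 CPM in ttna+/- libraries and 14.6, 13.5 and 9.73 CPM in WT libraries. Records equal in length and in every count are not told apart by these reads.

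Members also lay next to each other in the files. Of the 53, 16 formed 8 pairs of consecutive records. The 2030-base record was followed by a 739-base member, at 52.1, 34.4 and 61.1 CPM in ttna+/- libraries, against 15.1, 9.78 and 10.7 CPM in WT libraries. The 1431-base record was followed by a 604-base member, at 25.4, 31.8 and 29.1 CPM in ttna+/- libraries, against 12.04, 7.50 and 14.95 CPM in WT libraries. The ratios of means in these pairs were 3.60 and 4.15 for the first, and 2.02 and 2.505 for the second. A 4492-base and a 304-base member, and a 4664-base member with a copy of the 4182-base records, made further such pairs. The search for shared reads could not join copies at separate places. Reads shared between the 4664-base member and all copies together were therefore not looked for. The pairs of 2914 and 2390, 4623 and 1601, and 3554 and 2859 bases shared reads, so their records are not independent measurements. The counts of the 2030- and 739-base members also added up to whole numbers in all 6 libraries within the printed digits. That pair lay outside the search for shared reads, as only 3 counts of the 2030-base record were below 10000. These members too are not to be read as independent. How often records over the whole table form such pairs was not counted.

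Estimated counts can show which records compete for reads. Where a read matches several records and is divided among them, their counts become fractions that add up to whole numbers. Records were taken to share reads where their counts, not whole on their own, gave a whole sum in all 6 libraries within the printed digits. Over the whole table, 1420 of 16629 consecutive pairs with fractional counts (8.54%) met this. Records 10, 100 or 1000 places apart never did, in 14183, 14236 and 13864 pairs. Of the members, 42 had fractional counts in at least 4 libraries that were below 10000, and 14 of these could be placed in 10 sharing groups of 2 to 4 records. For 28 no group was found, and 5 members had whole counts in all libraries. Among the 28 was the 739-base member, whose counts do add up to whole numbers with those of the 2030-base neighbour outside the search. The 1403-, 1431-, 1029-, 2030- and 1948-base members and the more abundant of 2349 bases also had fractional counts. Too few of their counts lay below 10000 for the search, so records that share reads with them were not looked for. The 8.54% covers adjacent pairs only, while the members were also searched in longer runs and distant pairs. The 14 of 42 are therefore not to be set against it. Over the whole table, the summing described below found 2751 runs and 612 distant pairs, which left 52166 features of the 57775 records. The share of fractional records placed in a group was not counted there.

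In 5 of the 10 groups, holding 9 members, the summed level met the membership rule as well. A 3097-base member and the less abundant 2349-base member shared reads although they lie far apart in the files. Their sum was 252, 301 and 227 CPM in ttna+/- libraries, against 59.9, 74.6 and 74.7 CPM in WT libraries. The 3097-base record held a mean of 47.0% of the sum in ttna+/- and 51.6% in WT. A group of 3554-, 2859- and 3463-base records, the first pair of them members, summed to 205, 186 and 199 CPM in ttna+/- libraries, against 70.2, 74.3 and 74.99 CPM in WT libraries. The pair of 2914-base and 2390-base members summed to 103, 120 and 117 CPM in ttna+/- libraries, against 38.3, 46.0 and 47.2 CPM in WT libraries. The sums of the remaining groups were less far apart, with ratios of lowest ttna+/- to highest WT of 1.79 and 1.67.

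In the other 5 groups, with 1 member each, the summed level did not meet the rule. In 4 of them the sums of the genotypes overlapped or lay the other way. The clearest was the 2094-base member, at 15.1, 20.5 and 12.9 CPM in ttna+/- libraries, against 0.0556, 2.60 and 3.76 CPM in WT libraries. Its WT 1 value was an estimate of under 3 counts. The record it shared reads with, of 2231 bases, stood at 32.4, 34.7 and 31.5 CPM in ttna+/- libraries, against 57.4, 61.9 and 60.5 CPM in WT libraries. The member was higher and its partner lower in every ttna+/- library. Their sum was 47.5, 55.2 and 44.38 CPM in ttna+/- libraries, against 57.4, 64.5 and 64.3 CPM in WT libraries, lower in every ttna+/- library. The member held 31.8%, 37.1% and 29.0% of the sum in ttna+/- 1 to 3, against 0.0968%, 4.03% and 5.85% in WT 1 to 3.

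The 2222-base member had the same form. It stood at 6.40, 11.4 and 8.05 CPM in ttna+/- libraries, against 0.504, 1.30 and 2.63 CPM in WT libraries. Its most abundant partner, of 2448 bases, stood at 20.2, 18.05 and 14.3 CPM in ttna+/- libraries, against 30.8, 28.1 and 29.3 CPM in WT libraries. The 4 records of this group summed to 27.1, 30.1 and 24.4 CPM in ttna+/- libraries, against 31.7, 29.9 and 32.3 CPM in WT libraries, with only ttna+/- 2 above a WT library. The member held between 23.7% and 37.9% of the sum in ttna+/- libraries and between 1.59% and 8.16% in WT libraries.

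The 591-base member stood at 22.5, 37.8 and 33.1 CPM in ttna+/- libraries, against 3.66, 10.9 and 8.43 CPM in WT libraries. An 818-base partner stood lower in every ttna+/- library, at 104, 110 and 86.0 CPM, against 114, 151 and 122 CPM in WT libraries. A 589-base partner stood higher in every ttna+/- library, at 90.6, 112 and 89.2 CPM, against 50.5, 59.0 and 61.2 CPM in WT libraries. The 3 records summed to 228 ± 27.9 CPM in ttna+/- hearts, against 194 ± 26.5 CPM in WT hearts (SD, n = 3 per genotype), and the groups overlapped.

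The 2114-base member held a small part of its group. Its level was 7.09, 7.46 and 7.49 CPM in ttna+/- libraries, against 3.77, 3.83 and 4.04 CPM in WT libraries, with a CV under 4% in both genotypes. The group summed to 73.8 ± 18.8 CPM in ttna+/- hearts, against 74.6 ± 12.03 CPM in WT hearts (SD, n = 3 per genotype). The fifth group, led by the 483-base member, summed to 77.7, 114 and 72.2 CPM in ttna+/- libraries, against 34.8, 48.9 and 39.2 CPM in WT libraries, a ratio of 1.48 between the closest libraries. Division of reads is an estimate, and its error is in none of these values. Partners share reads with the member that chose them, so their levels are not independent of it.

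**Figure D4:**
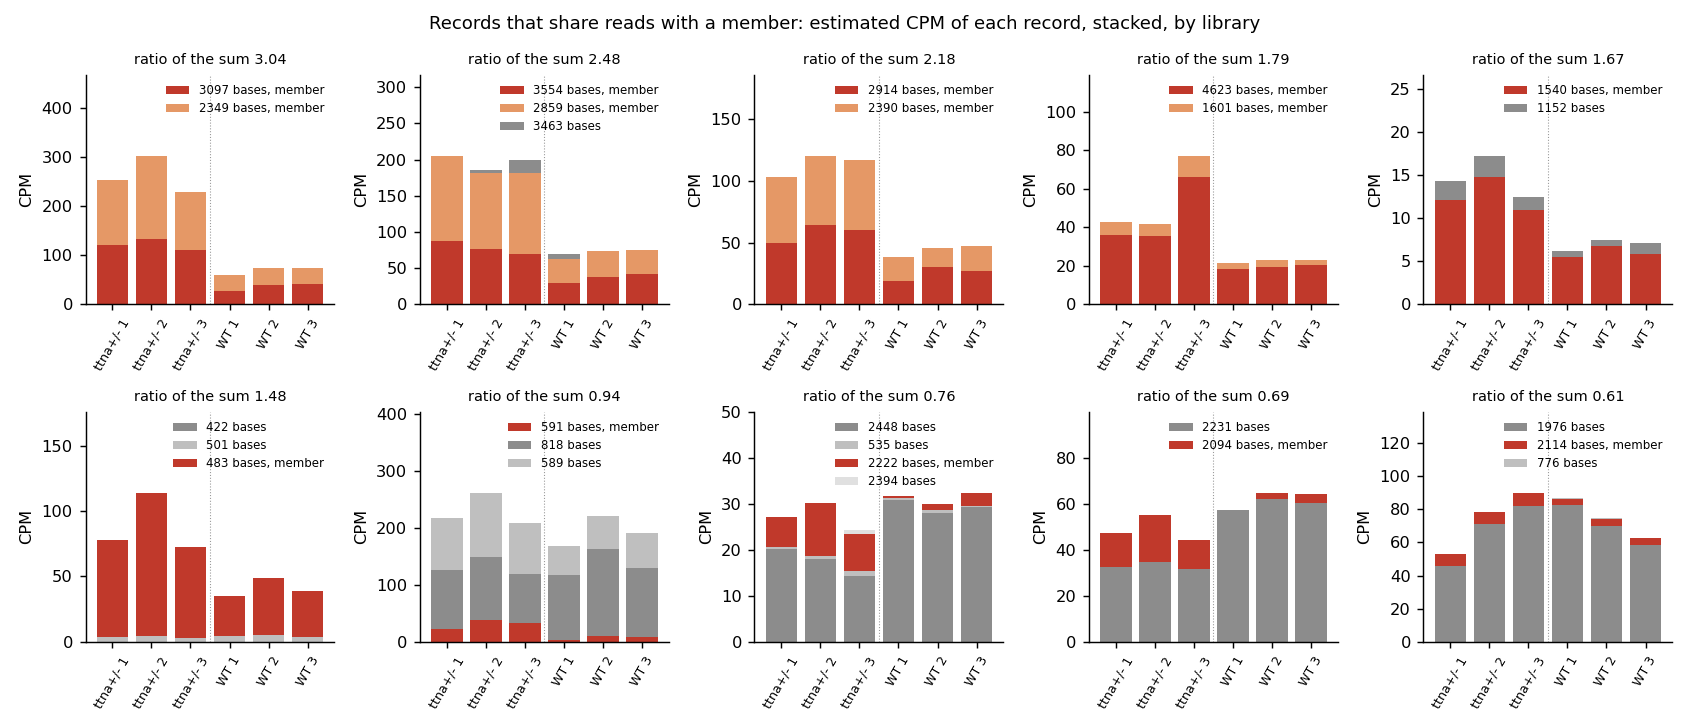
Estimated CPM of the records in each of the 10 groups that share reads, stacked by library with ttna+/- 1 to 3 left of WT 1 to 3, with members in red or orange and partners in grey, labelled by annotated length. Panels run from the largest ratio of summed levels, 3.04, to the smallest, 0.612, and the last 4 show a red part that is taller in ttna+/- libraries on columns whose heights overlap between genotypes or are lower in ttna+/-.

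Over the whole table, sharing records were summed with the shortest runs taken first and then unique pairs among the rest. This order is the reverse of that used for the members' groups. After summing, 46 features met the membership rule. They held 48 of the 53 members, and 2 of the 46 held none. The 2030- and 739-base members, outside the search as a pair, were not summed with each other.

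The annotated length played no part in the rule. The members' median was 2094 bases, against 2409 bases over the 12347 records. Some members are identical or share reads, so the 53 lengths are not independent, and the difference was not tested. Members of up to 1000 bases were 18.9% of the 53, against 13.1% of all records at this level. Members over 3000 bases were 28.3%, against 38.3%. The value rested on single libraries, at 3302 bases for the records that met the rule without ttna+/- 2 and 3224 bases without WT 1. Choosing on TPM in place of CPM, at a mean of at least 5 TPM, gave 50 records, 39 of them members, with a median of 1486 bases. TPM is corrected for length, so this limit asks for more reads of a long record than of a short record. The parts of the level limit and of the ratio in that shorter median were not told apart.

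**Figure D5:**
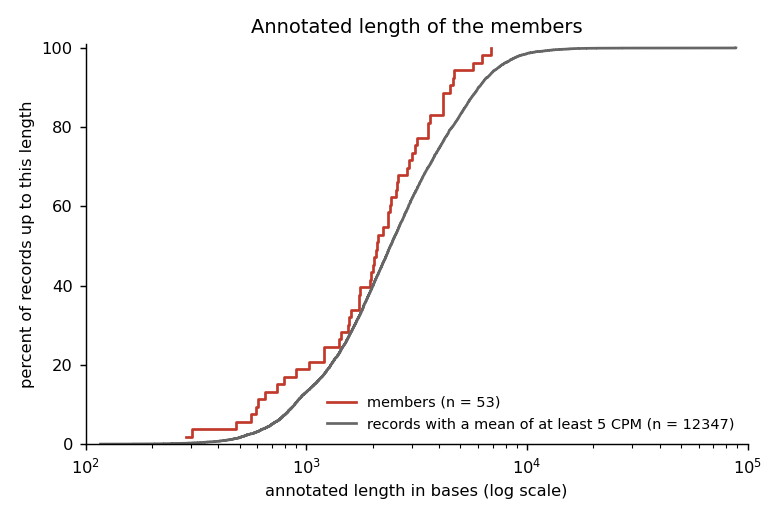
Cumulative share of records (percent) by annotated length in bases on a log scale, for the 53 members (red) and the 12347 records with a mean of at least 5 CPM (grey). The red curve lies left of the grey curve over the middle of the range, and the medians are 2094 and 2409 bases.

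Within a genotype the members did not follow the order seen over the whole table. The lowest ttna+/- library was ttna+/- 1 for 25 members (47.2%), ttna+/- 2 for 13 and ttna+/- 3 for 15, against 20.4%, 37.0% and 42.6% of the 12347 records. The highest was ttna+/- 2 for 28 members (52.8%), against 44.2% of the records. Among WT libraries the highest was WT 1 for 16 members (30.2%), against 48.7% of the records. The rule uses the lowest ttna+/- and the highest WT level, so this order is not independent of it.

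The quasi-likelihood test of edgeR, fitted on 29950 records, called 0 of them (0%) at an adjusted p under 0.05, and so none of the 53 members, all of which were fitted. At an unadjusted p under 0.05 it had 3178 records, 1432 of them (4.78%) higher in ttna+/-, and 52 of the 53 members. This is the contrast that chose the members, so their p-values are no evidence beyond the choice. The members' median log2 fold change was 1.44, with a range of 0.87 to 4.24, against a median of 0.01 over all records fitted. Their adjusted p ranged from 0.163 to 0.490. The 1403-base record ENSDART00000055019.6 had a log2 fold change of 1.44 ± 0.25 (SE) and an edgeR adjusted p of 0.238. The 650-base record ENSDART00000053077.6 had 3.33 ± 0.36 (SE) and an edgeR adjusted p of 0.163.

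DESeq2 had 337 of 33914 records (0.994%) higher in ttna+/- at an adjusted p under 0.05 and 252 lower. It called 48 of the 53 members. The 5 it did not call were the 792-, 896-, 2094-, 2568- and 3636-base records, whose WT libraries had CVs between 66.4% and 173%. The 1737-, 2222-, 2613- and 6871-base members, with WT CVs between 72.8% and 125%, were called by it. DESeq2 gave ENSDART00000055019.6 an adjusted p of 0.000153 and ENSDART00000053077.6 one of 8.94e-17. The same contrast chose the members, so these calls and p-values too are no evidence beyond the choice. Across the alternatives the edgeR and limma adjusted p stayed between 0.0935 and 0.602 for these 2 records, and the DESeq2 adjusted p at or below 0.00271.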

How the data were processed

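Polyadenylated RNA of 6 pooled ventricle libraries was sequenced as paired reads of 50 bases, per the labels' protocols. Per the file headers, each deposited table gives the lengths of every transcript record with its estimated count and TPM. The deposited estimated counts are not scaled, and the deposited TPM values are length-corrected. Cuffdiff, Cufflinks 2.2.1 and TopHat2 2.1.1 are named, with no role, per the submitters' processing notes, as are the builds GRCz11 and Zv9. Which program made the tables is not given in the sources used here. Counts were scaled to CPM with library totals. The members and lists were chosen with earlier results of these data known.

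Counts rounded to whole numbers were tested with edgeR 4.0.16 in R 4.3.3 (quasi-likelihood test, TMM factors, filterByExpr with a minimum count of 10, genotype as the only term, Benjamini-Hochberg adjustment over all records fitted). The SE is the log2 fold change over the square root of F. Alternatives used DESeq2 1.42.0, limma 3.58.1 on log2(TPM + 1) and log2(TPM + 0.1), a replicate block, and each library left out. The fits and the search for shared reads were tested on simulated data. The simulated sharing groups were consecutive records, so distant pairs and identical copies were not tested. The simulated counts for the fits held no split of the libraries other than genotype.

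Sharing groups were unique pairs anywhere in the table, or else the shortest run of up to 6 consecutive records, with at least 2 records fractional in 4 or more libraries. How that requirement applies to runs was settled after first results were seen. Records printed by ID are the member with the highest mean CPM and the one with the largest ratio and at least 3 counts in every WT library. The others follow by length: the top 10 by mean and by ratio, sharing members, those at the limits, and the members with wide spread or whole counts, added after their values were seen. Floors of 3 counts cover counting error only.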

Additional observations from a re-analysis of the deposited data

How the results depend on the processing

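The number of records meeting the membership rule, 53, was 75 with TMM factors, 81 with DESeq2 size factors, 50 on TPM, 54 after thinning, 77 with each library's trend on length removed (lowess, span 0.3) and 51 with identical records counted once, an alternative added after seeing the data. It was 128 and 37 at a mean of at least 1 and 10 CPM, and 144 and 18 at ratios above 5 to 4 and above 2. Without 1 library it ranged from 76 (without WT 2) to 772 (without ttna+/- 2), with 266 without WT 1, 89 without ttna+/- 1, 88 without WT 3 and 85 without ttna+/- 3. Fewer libraries have to agree there, but 772 and 266 exceed the others, and the cause was not tested. The median length was 1485.5 bases on TPM and ranged from 2020 to 3302 bases without 1 library. Both values on TPM used a level limit of 5 TPM in place of 5 CPM.

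The count of 0 records called by edgeR, and of 0 members, held with RLE factors, without a filter, on thinned counts, with the replicate block (0 called, 3365 at an unadjusted p under 0.05) and without each library (0 to 0). No member was called by limma, which called 1 record on log2(TPM + 1) and 6 on log2(TPM + 0.1). DESeq2 called 589 records and 48 members, and 515 and 48 on thinned counts. Without ttna+/- 1, 2 or 3 in turn it called 460, 2334 and 420 records and 45, 46 and 40 members, and without WT 1, 2 or 3 it called 1326, 412 and 491 records and 51, 47 and 39 members, both added after seeing the data like the thinned DESeq2 fit. The cause of the difference between the tools was not tested. Deviations of same-numbered libraries from their genotype means correlated at 0.24, 0.20 and -0.20 across records, so the numbers were not taken to pair the libraries. With 3 libraries per genotype and reads divided among records, a record that was not called may still differ. The smallest difference that could be detected was not computed.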
